A study of Mus musculus with 6 samples.

Results

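The proteasome of mouse splenic dendritic cells was followed through the messenger RNA of its subunits, its assembly chaperones and its activators. The members are the probe sets with exactly 1 gene symbol that begins with Psma, Psmb, Psmc, Psmd, Psme, Psmf or Psmg, leaving out the immunoproteasome subunits Psmb8, Psmb9 and Psmb10. The rule found 53 probe sets of 47 genes, among 21789 probe sets of 19938 genes in all. For genes with several probe sets, the brightest over all arrays was used, and all 47 genes were tested because no filter on dim genes was applied. The RNA came from wild-type (WT) mouse splenic dendritic cells of 3 sorted populations, with 2 Affymetrix arrays each. The populations were cDC1 (labelled CD24+, and CD24+CD172a- in the series title), CD24+CD172a+ cDC2, and CD24-CD172a+ cDC2 (some labels give CD172a+ alone). The labels name no strain, age or treatment. They also leave unstated whether the 2 arrays of a population hold RNA of different mice. The p-values thus measure only the spread between these arrays, which may be technical.

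The proteasome is the protease that degrades proteins tagged with ubiquitin. Its barrel-shaped core is built of alpha rings, which gate the entrance, and beta rings, which hold the proteolytic sites, and a regulatory cap of a base and a lid binds, unfolds and threads in the substrate. In dendritic cells the peptides it releases feed MHC class I presentation, and 3 of the beta subunits can be exchanged for immunoproteasome forms. Type 1 conventional dendritic cells (cDC1) specialise in presenting exogenous antigen on MHC class I, whereas type 2 cells (cDC2) carry CD172a and mainly stimulate CD4 T cells.

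Marker genes followed the labels of cDC1 and cDC2. Cd24a was in no marker list, so the CD24 label between the cDC2 populations was not checked. All 7 cDC1 markers, Xcr1 and Clec9a among them, were called lower in CD24+CD172a+ cDC2 than in cDC1, and 6 of 7 in the other cDC2 population, while all 7 cDC2 markers, Sirpa among them, were called higher in both. The summed intensity of 6 T cell markers ran from 295.1 to 339.9 over all 6 arrays, that of 7 NK cell markers from 131.8 to 153.4, that of 7 B cell markers from 235.7 to 281.7 and that of 4 erythroid markers from 75.04 to 86.06. Cd3g, Cd28, Klrb1c and Gzma were below the 25th percentile of every array. The 11 monocyte and macrophage markers summed to 5479 to 5626 in cDC1, 3629 to 4242 in CD24+CD172a+ cDC2 and 5783 to 6077 in CD24-CD172a+ cDC2, with Mertk below the 25th percentile of every array. The 8 neutrophil markers summed to 180.7 to 189.7, 268.5 to 300.3 and 165.5 to 177.5 in the same order, with Ly6g below that percentile, and 7 plasmacytoid markers to 596.0 to 623.1, 712.3 to 741.3 and 466.2 to 468.0. Of the B cell markers, Blk and Fcer2a were called higher in both cDC2 populations than in cDC1 and Cd79b in CD24+CD172a+ cDC2, while Ms4a1 was called lower in both. Against cDC1, the T cell marker Cd3d was called higher in CD24-CD172a+ cDC2 (0.47 ± 0.12, limma adjusted p = 0.0275). The neutrophil markers S100a8 and S100a9 were called higher in CD24+CD172a+ cDC2 than in cDC1. Of 7 plasmacytoid markers, 3 were called higher and 2 lower in CD24+CD172a+ cDC2 against cDC1, and 2 and 3 in CD24-CD172a+ cDC2. Of 5 general dendritic cell markers, Itgax was called higher in both cDC2 populations and Flt3 lower in CD24-CD172a+ cDC2. Of the 11 monocyte and macrophage markers, 2 were called higher and 4 lower in CD24+CD172a+ cDC2 against cDC1, and in CD24-CD172a+ cDC2 those numbers were 6 and 2. Of 17 cell cycle genes, 8 were called higher in CD24+CD172a+ cDC2 against cDC1, and 4 (Cdk1, Mcm2, Mcm6 and Rrm2) were called lower in CD24-CD172a+ cDC2, the comparison in which 18 members fell. The part of these genes and cells in the results was not tested. In a bulk sample, fewer cells of a type and less RNA per cell cannot be told apart.

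Of the 47 proteasome genes, 8 fell in both cDC2 populations against cDC1. Another 10 passed the test in CD24-CD172a+ cDC2 alone, 1 in CD24+CD172a+ cDC2 alone, and 28 in neither. The direct test between the cDC2 populations called 0 of the 47. A call in 1 population alone is thus no evidence of a difference between them. For these overlaps, shares over all genes were not counted, so they do not show whether such overlap is particular to these genes. In what follows, levels and differences are on the log2 intensity scale, differences carry their standard error (SE), and calls need an adjusted p under 0.05 in limma, over all 19938 genes. Of 47 members, 18 fell in CD24-CD172a+ cDC2 against cDC1, or 38.3%, beside 8.91% of all genes tested and 16.1% of genes above the median level. In CD24+CD172a+ cDC2 against cDC1, 9 of 47 fell, or 19.1%, beside 6.52% of all genes and 11.4% of genes above the median level. By limma, 0 members were called higher in CD24+CD172a+ cDC2, beside 7.11% of all genes, and 0 in CD24-CD172a+ cDC2, beside 6.83%. At an unadjusted p under 0.05 the members higher were also 0 and 0, beside 2391 and 2339 of all 19938 genes. The comparisons share the cDC1 arrays, so their counts are not independent, and genes are not independent replicates.

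No member differed from cDC1 by as much as 1 on the log2 scale. The median difference of the 47 members from cDC1 was -0.33 in CD24-CD172a+ cDC2, beside -0.15 in CD24+CD172a+ cDC2. Over all genes it was 0.001 and -0.03, and over genes above the median level -0.053 and -0.006. Differences of members from cDC1 ran from -0.99 to 0.25 in CD24-CD172a+ cDC2 and from -0.84 to 0.21 in CD24+CD172a+ cDC2. Of the 47, 42 had a negative difference in the first of these and 37 in the second, where 49.8% and 54.7% of all genes did. Of the 9969 genes above the median level, 5603 and 5065 did. Both cDC2 arrays lay below both cDC1 arrays for 38 members in CD24-CD172a+ cDC2 and for 28 in CD24+CD172a+ cDC2. Over all genes these shares were 27.4% and 28.6%, and over genes above the median level 39.3% and 33.1%. The group means ran from cDC1 down through CD24+CD172a+ cDC2 to CD24-CD172a+ cDC2 in 30 of the 47 members. The same order held in 20.3% of all genes and in 26.7% of genes above the median level.

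**Figure D1:**
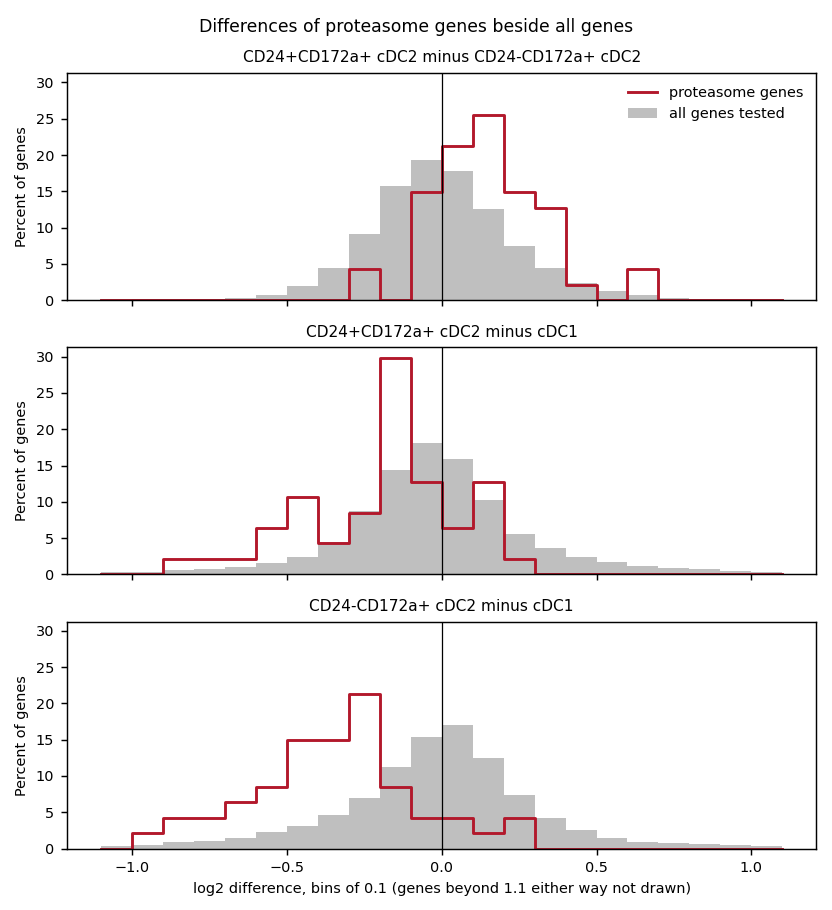
Share of genes (percent, vertical axis) in bins of log2 difference (horizontal axis) for the 47 proteasome genes (red outline) and for all genes tested (grey bars), in the 3 comparisons. Against cDC1 the red outline sits to the left of the grey bars, with medians of -0.15 and -0.33, and between the cDC2 populations it sits to the right, with a median of 0.14.

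The same picture held array by array, with some spread inside each group. Relative to each gene's own mean over 6 arrays, the members' median was 0.21 and 0.12 in the 2 cDC1 arrays, -0.04 and 0.01 in CD24+CD172a+ cDC2, and -0.18 and -0.16 in CD24-CD172a+ cDC2. The first cDC1 array and the second CD24+CD172a+ array were thus the higher of their pairs. Over all genes these medians lay between -0.016 and 0.012. Of the 47 members, 42 and 35 were above their own mean in the cDC1 arrays, 17 and 26 in the CD24+CD172a+ arrays, and 7 and 3 in the CD24-CD172a+ arrays.

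**Figure D2:**
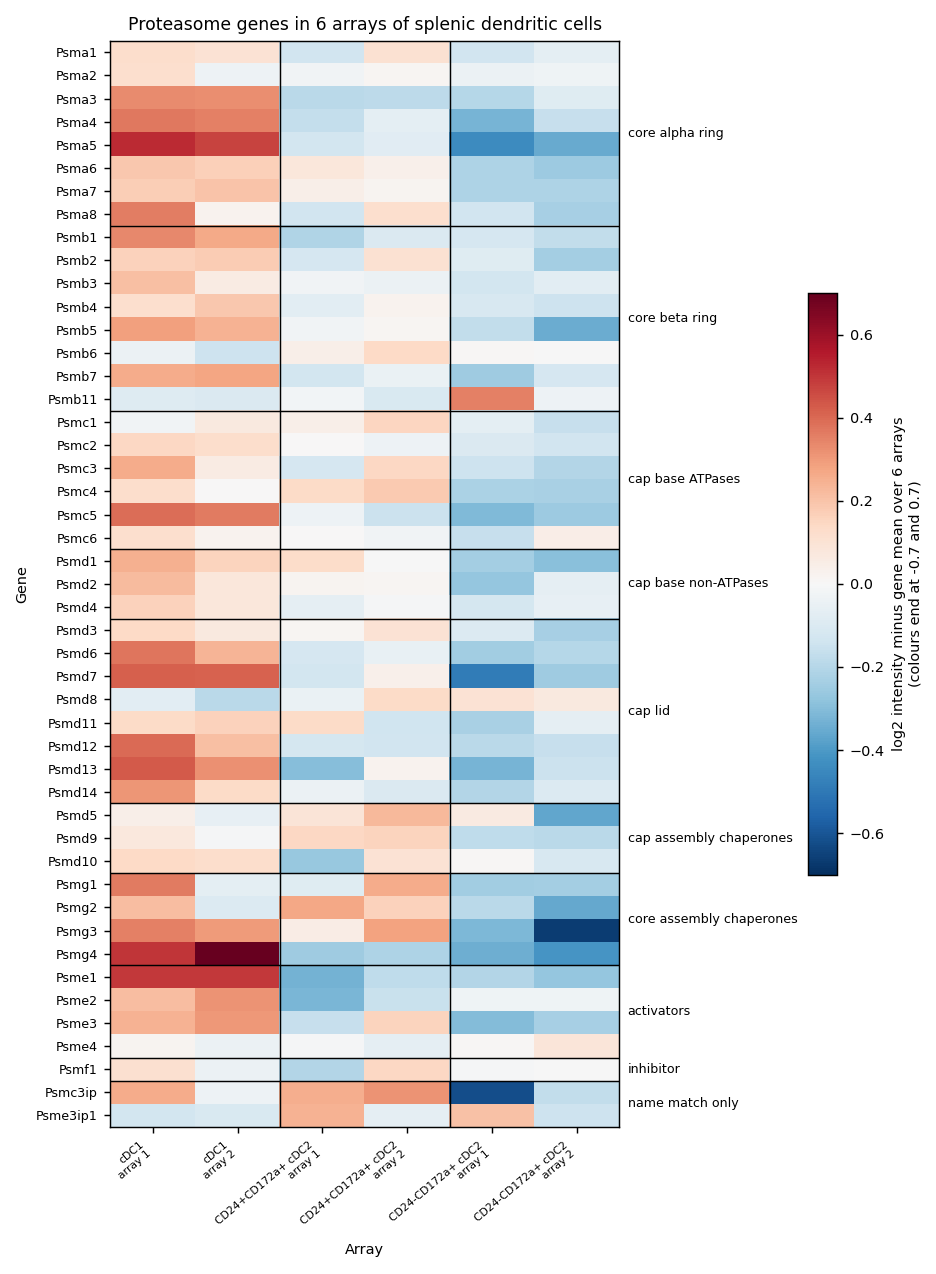
Log2 intensity of each of the 47 genes (rows, by role) in each of the 6 arrays (columns), minus the gene's mean over the arrays; red is above and blue below that mean. The cDC1 columns are mostly red, with 42 and 35 genes above their mean, and the CD24-CD172a+ cDC2 columns mostly blue, with 7 and 3.

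All 8 alpha ring genes had lower means in both cDC2 populations than in cDC1. Of the 8, 5 fell in CD24-CD172a+ cDC2, beside 3 in CD24+CD172a+ cDC2, with medians of -0.41 and -0.18. Psma5 moved most within the ring. Its levels were 9.87 and 9.82 in cDC1, 9.22 and 9.27 in CD24+CD172a+ cDC2, and 8.91 and 8.996 in CD24-CD172a+ cDC2. No 2 groups overlapped. Psma5 was 1.86-fold lower in CD24-CD172a+ cDC2 (-0.89 ± 0.13, limma adjusted p = 0.00062) and 1.52-fold lower in CD24+CD172a+ cDC2 (-0.60 ± 0.13, limma adjusted p = 0.00792). A dimmer Psma5 probe set gave -0.80 and -0.73. On that probe set the cDC2 populations overlapped, at 7.71 and 8.12 in CD24+CD172a+ against 7.78 and 7.91 in CD24-CD172a+ cDC2.

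Psma3 read 11.48 and 11.47 in cDC1, 10.96 and 10.96 in CD24+CD172a+ cDC2, and 10.94 and 11.06 in CD24-CD172a+ cDC2. Both cDC2 groups lay below cDC1 and overlapped each other. Psma3 fell by 0.51 ± 0.13 in CD24+CD172a+ cDC2 (limma adjusted p = 0.019) and by 0.47 ± 0.13 in CD24-CD172a+ cDC2 (limma adjusted p = 0.0268). Its 3 probe sets gave between -0.52 and -0.49 in the former and between -0.47 and -0.43 in the latter, and each was called when probe sets were tested singly.

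Psma4 stood at 9.39 and 9.38 in cDC1, 8.85 and 8.96 in CD24+CD172a+ cDC2, and 8.70 and 8.86 in CD24-CD172a+ cDC2, so that cDC1 lay above both others. It fell by 0.48 ± 0.13 and 0.61 ± 0.13 in them (limma adjusted p = 0.0319 and 0.00888). Psma6 and Psma7 fell in CD24-CD172a+ cDC2, by 0.41 ± 0.12 and 0.40 ± 0.12 (limma adjusted p = 0.045 and 0.0499). Their differences in CD24+CD172a+ cDC2 were -0.12 and -0.15, and the direct test between the cDC2 populations gave adjusted p = 0.318 and 0.399 in limma. Psma1 and Psma2 were not called, with differences from -0.21 to -0.05. Psma8, the alpha subunit made mainly in the testis, read 4.35 to 4.94 over the 6 arrays and was not called.

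Of 8 beta ring genes, 3 fell in CD24-CD172a+ cDC2, beside 1 in CD24+CD172a+ cDC2, with medians of -0.31 and -0.18. Psmb1, a structural beta subunit, read 9.58 and 9.51 in cDC1, 9.03 and 9.15 in CD24+CD172a+ cDC2 and 9.13 and 9.07 in CD24-CD172a+ cDC2. It fell in both, by 0.46 ± 0.13 and 0.45 ± 0.13 (limma adjusted p = 0.0351 and 0.0358). The cDC2 groups lay below cDC1 and overlapped each other.

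Of the 3 catalytic subunits, which cut the substrate, Psmb5 and Psmb7 fell in CD24-CD172a+ cDC2 and Psmb6 was not called. Psmb5, the chymotrypsin-like site, read 10.55 and 10.51 in cDC1, 10.24 and 10.28 in CD24+CD172a+ cDC2, and 10.09 and 9.92 in CD24-CD172a+ cDC2, without overlap between groups. It fell by 0.53 ± 0.13 in CD24-CD172a+ cDC2 (limma adjusted p = 0.018), while its difference in CD24+CD172a+ cDC2 was -0.27 ± 0.13 (limma adjusted p = 0.236). Psmb7, the trypsin-like site, read 9.88 and 9.90 in cDC1, 9.49 and 9.57 in CD24+CD172a+ cDC2, and 9.37 and 9.50 in CD24-CD172a+ cDC2. It fell by 0.45 ± 0.13 in CD24-CD172a+ cDC2 (limma adjusted p = 0.0346), and its difference of -0.36 ± 0.13 in CD24+CD172a+ cDC2 was not called (limma adjusted p = 0.103). Psmb6, the caspase-like site, read 10.98 and 10.88 in cDC1, 11.06 and 11.16 in CD24+CD172a+ cDC2, and 11.03 and 11.02 in CD24-CD172a+ cDC2. Here cDC1 was the lowest group, by 0.18 ± 0.13 and 0.09 ± 0.13 (limma adjusted p = 0.463 and 0.728). RefSeq's gene table (GRCm38.p6) lists pseudogenes of Psma5, Psmb5, Psmb6 and Psmb7, and whether these probe sets also bind such copies was not tested.

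The other beta subunits, Psmb2, Psmb3 and Psmb4, were not called, with differences from -0.33 to -0.17. Psmb11, the beta subunit of the thymic cortex, read 4.61 to 5.07 over the 6 arrays.

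The promoters of Psmb5 and Psmb6 are shown because both hold the core of the antioxidant response element, TGACNNNGC, to which the proteasome gene activators NFE2L1 and NFE2L2 bind, while only Psmb5 fell. Windows are 30 bases from RefSeq (GRCm38.p6), 5′ to 3′ on the gene's strand, with the match in capitals. The Psmb5 window, on the minus strand, is chr14:54618023-54618052, with the match beginning 47 bases before the start site. The Psmb6 window, on the plus strand, is chr11:70525338-70525367, with the match beginning 9 bases before it.
Psmb5: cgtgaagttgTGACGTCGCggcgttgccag
Psmb6: ctaaagagagTGACGGAGCgctttacgacg
Promoter windows of 300 bases, from 250 before to 50 after a start site, were found for 39 of the 47 genes (43 windows). TGACNNNGC, searched on both strands, was in 6 of the 43 windows (Psmb5, Psmb6, Psmc6, Psmd9, Psmd12 and Psme4), beside 12.4% of all 32851 promoter windows. Of the 16 genes with a window that fell in at least 1 comparison, 2 hold it, Psmb5 and Psmd12. CCAAT, the NF-Y box, was in 15 of the 43 windows, beside 37.4% of all. A match of letters is no evidence that a factor binds there.

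**Figure D3:**
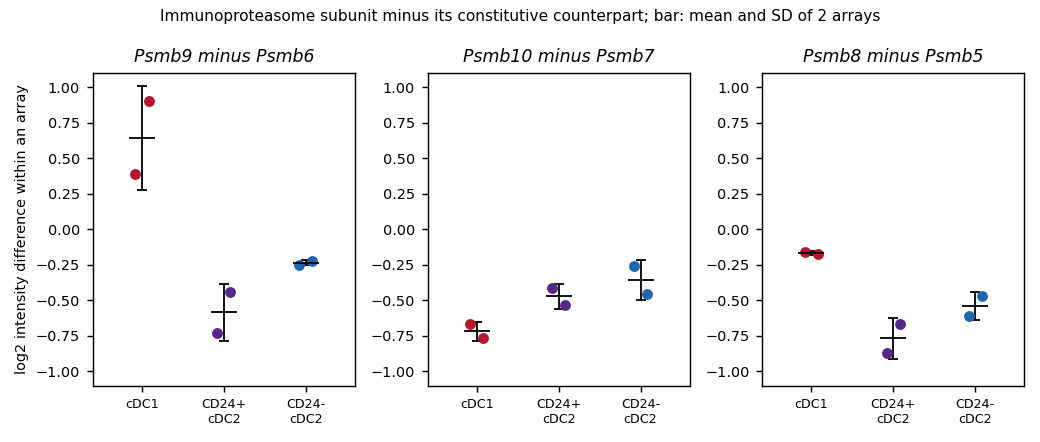
Log2 intensity of an immunoproteasome subunit minus that of the constitutive subunit it replaces, within each array (points), with the mean and SD of 2 arrays (bars), for the 3 catalytic pairs. The cDC1 arrays lie above both cDC2 populations for Psmb9 with Psmb6 and for Psmb8 with Psmb5, and below them for Psmb10 with Psmb7; only shifts between groups can be read, since probe sets differ in brightness.

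Set beside the constitutive sites, the immunoproteasome subunits Psmb8 and Psmb9 fell by 0.90 ± 0.13 and 0.79 ± 0.17 in CD24-CD172a+ cDC2 and by 0.87 ± 0.13 and 1.05 ± 0.17 in CD24+CD172a+ cDC2 (limma adjusted p from 0.000977 to 0.0109), and Psmb10 differed by -0.09 and -0.11. Within arrays, the log2 ratio of Psmb9 to Psmb6 was 0.39 and 0.90 in cDC1, -0.73 and -0.44 in CD24+CD172a+ cDC2, and -0.25 and -0.22 in CD24-CD172a+ cDC2. That of Psmb8 to Psmb5 was -0.16 and -0.17 in cDC1, -0.87 and -0.66 in CD24+CD172a+ cDC2, and -0.61 and -0.47 in CD24-CD172a+ cDC2. That of Psmb10 to Psmb7 ran the other way, at -0.67 and -0.77 in cDC1, -0.41 and -0.53 in CD24+CD172a+ cDC2, and -0.25 and -0.45 in CD24-CD172a+ cDC2. In each pair cDC1 did not overlap either cDC2 group, and with 2 arrays against 2 the exact two-sided permutation test cannot go below 0.333, which is the p of each of these 6 differences from cDC1. The levels in a pair come from different probe sets and are not compared.

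The base of the cap holds a ring of ATPases that unfold the substrate. All 6 of its genes had lower means in CD24-CD172a+ cDC2 than in cDC1, and 4 of 6 in CD24+CD172a+ cDC2, and Psmc5 was the only gene of the 6 called. Psmc5 read 9.55 and 9.52 in cDC1, 9.12 and 9.01 in CD24+CD172a+ cDC2, and 8.85 and 8.90 in CD24-CD172a+ cDC2. The 3 groups did not overlap. It was 1.58-fold lower in CD24-CD172a+ cDC2 (-0.66 ± 0.13, limma adjusted p = 0.00461) and 1.38-fold lower in CD24+CD172a+ cDC2 (-0.47 ± 0.13, limma adjusted p = 0.031). The other 5 ATPase genes, Psmc1, Psmc2, Psmc3, Psmc4 and Psmc6, had differences from -0.33 to 0.10. A dimmer Psmc1 probe set gave -0.37 in CD24-CD172a+ cDC2, beside -0.07 in CD24+CD172a+ cDC2, where the one used gave -0.14 and 0.07.

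Of the base subunits that are not ATPases, the scaffold subunit Psmd1 read 9.10 and 9.01 in cDC1, 8.98 and 8.85 in CD24+CD172a+ cDC2, and 8.62 and 8.56 in CD24-CD172a+ cDC2. It fell by 0.47 ± 0.13 in CD24-CD172a+ cDC2 (limma adjusted p = 0.0306), and differed by -0.14 in CD24+CD172a+ cDC2. Psmd2, the other large scaffold subunit, and Psmd4, a ubiquitin receptor, were not called, with differences of -0.32 and -0.21 in CD24-CD172a+ cDC2.

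The lid removes ubiquitin from the substrate before it is threaded into the core. Of its 8 genes, 4 fell in CD24-CD172a+ cDC2, beside 1 in CD24+CD172a+ cDC2, with medians of -0.43 and -0.34. Psmd7, which pairs with the deubiquitinase Psmd14, read 7.72 and 7.72 in cDC1, 7.18 and 7.34 in CD24+CD172a+ cDC2, and 6.81 and 7.06 in CD24-CD172a+ cDC2. It was 1.73-fold lower in CD24-CD172a+ cDC2 (-0.79 ± 0.14, limma adjusted p = 0.00274), and its difference of -0.46 ± 0.14 in CD24+CD172a+ cDC2 narrowly missed the threshold (limma adjusted p = 0.0518). Psmd13, a structural lid subunit, read 8.19 and 8.08 in cDC1, 7.46 and 7.78 in CD24+CD172a+ cDC2, and 7.43 and 7.61 in CD24-CD172a+ cDC2. Its cDC2 arrays overlapped each other and lay below cDC1, and it fell by 0.51 ± 0.15 and 0.61 ± 0.15 (limma adjusted p = 0.0459 and 0.0176).

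Psmd6 read 9.28 and 9.14 in cDC1, 8.79 and 8.86 in CD24+CD172a+ cDC2, and 8.66 and 8.71 in CD24-CD172a+ cDC2. Psmd12 read 8.89 and 8.70, then 8.37 and 8.36, then 8.30 and 8.33, in the same order. These structural lid subunits fell in CD24-CD172a+ cDC2, by 0.53 ± 0.13 and 0.48 ± 0.13 (limma adjusted p = 0.0172 and 0.029), and differed by -0.39 and -0.43 in CD24+CD172a+ cDC2 (limma adjusted p = 0.0755 and 0.051). The deubiquitinase gene Psmd14 itself differed by -0.37 ± 0.13 in CD24-CD172a+ cDC2, beside -0.29 ± 0.13 in CD24+CD172a+ cDC2, with cDC1 above the other arrays, and was not called (limma adjusted p = 0.0893 and 0.205). Psmd8 was the exception, with cDC1 arrays at 9.09 and 8.97, below the cDC2 arrays at 9.12 to 9.30, and differences of 0.22 in CD24-CD172a+ and 0.18 in CD24+CD172a+ cDC2 that were not called. Psmd3 and Psmd11 differed by -0.27 and -0.29 in CD24-CD172a+ cDC2.

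**Figure D4:**
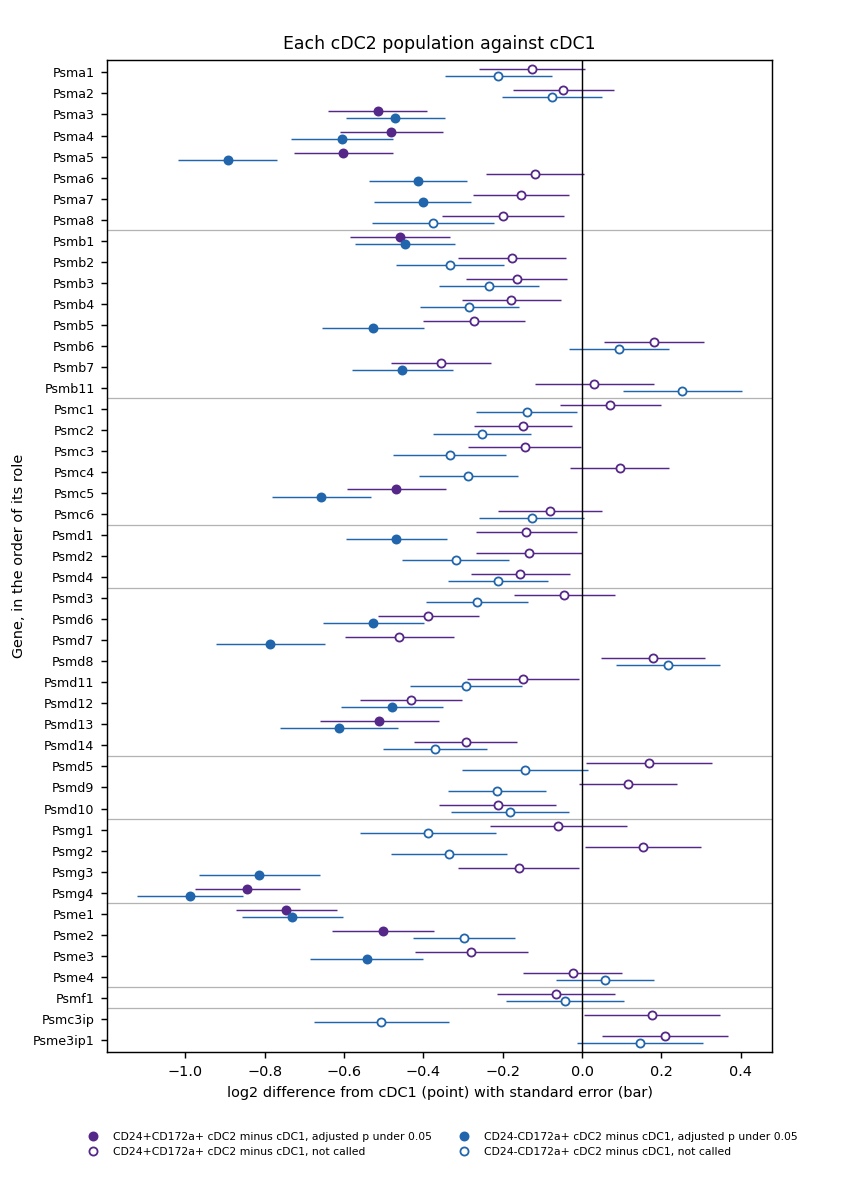
Log2 difference from cDC1 (horizontal axis, points, with standard errors as bars) of each of the 47 genes in CD24+CD172a+ cDC2 (purple) and CD24-CD172a+ cDC2 (blue), in the order of their roles, with filled points for adjusted p under 0.05. All 27 filled points, 9 purple and 18 blue, lie left of 0.

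Of 7 assembly chaperones, 2 fell in CD24-CD172a+ cDC2, beside 1 in CD24+CD172a+ cDC2, all of the core. Psmg3 and Psmg4 form a pair that builds the alpha ring. Psmg4 read 8.17 and 8.39 in cDC1, 7.42 and 7.45 in CD24+CD172a+ cDC2, and 7.33 and 7.26 in CD24-CD172a+ cDC2. The 3 groups did not overlap. Psmg4 was 1.98-fold lower in CD24-CD172a+ cDC2 (-0.99 ± 0.13, limma adjusted p = 0.000468) and 1.795-fold lower in CD24+CD172a+ cDC2 (-0.84 ± 0.13, limma adjusted p = 0.00142), the largest difference of any member in both comparisons.

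Psmg3 read 7.01 and 6.95 in cDC1, 6.71 and 6.94 in CD24+CD172a+ cDC2, and 6.34 and 5.99 in CD24-CD172a+ cDC2. It fell by 0.81 ± 0.15 in CD24-CD172a+ cDC2 against cDC1 (limma adjusted p = 0.00431), and differed by -0.16 ± 0.15 in CD24+CD172a+ cDC2 (limma adjusted p = 0.626). Between the cDC2 populations it was 0.65 ± 0.15 higher in CD24+CD172a+ cDC2, which missed the threshold (limma adjusted p = 0.0734). Psmg1 and Psmg2, the partner chaperones, differed by -0.39 ± 0.17 and -0.34 ± 0.15 in CD24-CD172a+ cDC2 (limma adjusted p = 0.181 and 0.175). Of the chaperones of the cap, Psmd5, Psmd9 and Psmd10, none was called, and Psmd9 differed most, standing 0.33 ± 0.12 higher in CD24+CD172a+ than in CD24-CD172a+ cDC2 (limma adjusted p = 0.262). Its arrays read 6.77 and 6.68 in cDC1, 6.83 and 6.84 in CD24+CD172a+ cDC2, and 6.51 and 6.50 in CD24-CD172a+ cDC2.

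Activators replace or join the cap at the ends of the core. Psme1 and Psme2 encode the subunits of the interferon-inducible activator ring. Psme1 read 11.48 in both cDC1 arrays, 10.65 and 10.81 in CD24+CD172a+ cDC2, and 10.78 and 10.72 in CD24-CD172a+ cDC2, so that cDC1 lay apart and the cDC2 groups overlapped. It was 1.68-fold lower in CD24+CD172a+ cDC2 (-0.75 ± 0.13, limma adjusted p = 0.00245) and 1.66-fold lower in CD24-CD172a+ cDC2 (-0.73 ± 0.13, limma adjusted p = 0.00263).

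Psme2 read 10.13 and 10.23 in cDC1, 9.60 and 9.76 in CD24+CD172a+ cDC2, and 9.88 and 9.89 in CD24-CD172a+ cDC2. It was the only member called in CD24+CD172a+ cDC2 alone, where it fell by 0.50 ± 0.13 (limma adjusted p = 0.0257), beside -0.30 ± 0.13 in CD24-CD172a+ cDC2 (limma adjusted p = 0.172). The direct test between the cDC2 populations gave -0.21 ± 0.13 (limma adjusted p = 0.525). A probe set shared by Psme2 and its near-copy Psme2b, which was not tested, read 9.11 and 9.18, then 8.71 and 8.69, then 8.63 and 8.84 in the same order, so signal from the copies cannot be told apart.

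Psme3, the nuclear activator, read 8.87 and 8.93 in cDC1, 8.46 and 8.78 in CD24+CD172a+ cDC2, and 8.32 and 8.39 in CD24-CD172a+ cDC2. It fell by 0.54 ± 0.14 in CD24-CD172a+ cDC2 (limma adjusted p = 0.0254) and differed by -0.28 ± 0.14 in CD24+CD172a+ cDC2 (limma adjusted p = 0.279). Psme4, a large activator of another family, held between 7.41 and 7.56 on all 6 arrays, with differences from cDC1 of 0.06 ± 0.12 in CD24-CD172a+ and -0.02 ± 0.12 in CD24+CD172a+ cDC2. Psmf1, which binds the core and inhibits it in vitro, read 6.53 and 6.38 in cDC1, 6.21 and 6.56 in CD24+CD172a+ cDC2, and 6.41 and 6.41 in CD24-CD172a+ cDC2. The groups overlapped, and the differences from cDC1 were -0.07 ± 0.15 in CD24+CD172a+ and -0.04 ± 0.15 in CD24-CD172a+ cDC2.

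**Figure D5:**
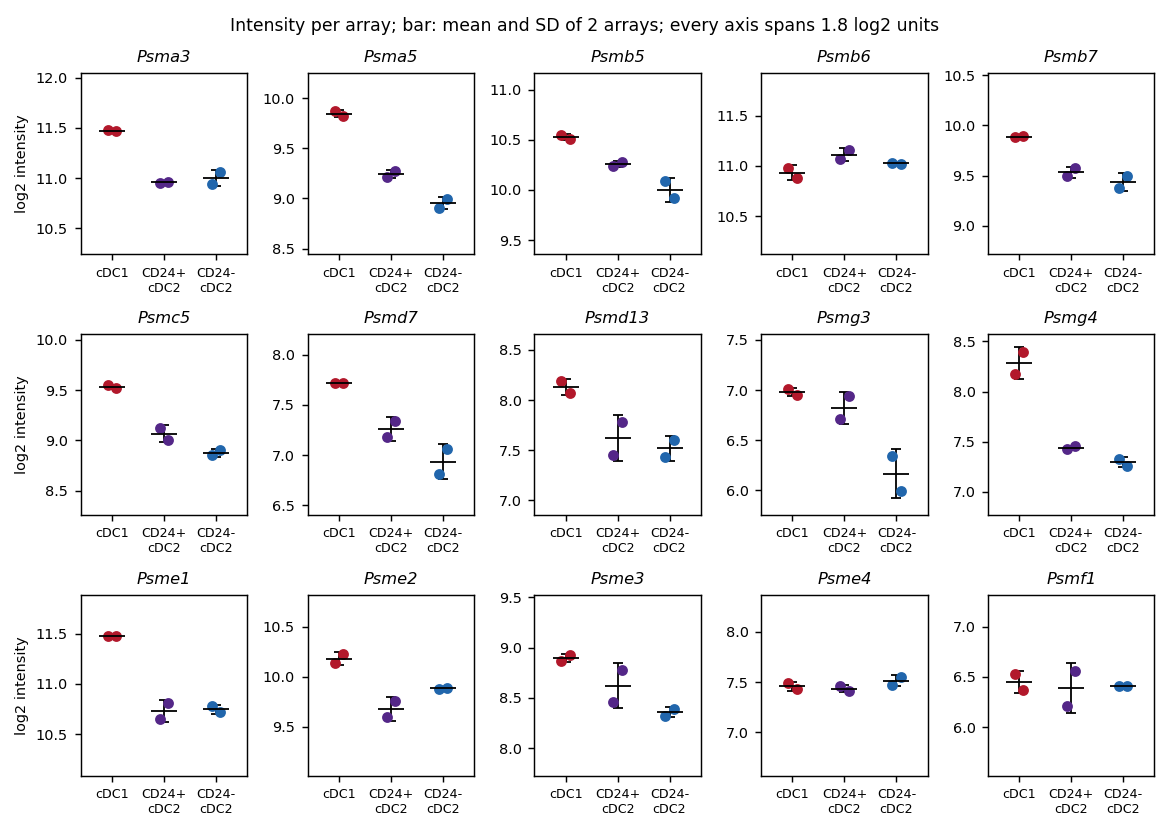
Log2 intensity (vertical axis) per array (points) with the mean and SD of 2 arrays (bars) for 15 members in cDC1, CD24+CD172a+ cDC2 (CD24+) and CD24-CD172a+ cDC2 (CD24-). Psmg4, Psme1 and Psma5 show cDC1 well above both cDC2 populations, Psmg3 sets CD24-CD172a+ cDC2 apart, and the means of Psmb6 and Psme4 lie close together.

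The start regions of Psme1 and Psmg4 are shown because these genes fell in both cDC2 populations in every fit that left out a compared array, and both hold a pattern bound by interferon regulatory factors, GAAA followed after any 2 bases by GAAA. This motif was searched after the sequences had been seen. The Psme1 window, chr14:55578493-55578522 on the plus strand, holds the match on the opposite strand, beginning at base 10 after the start site. The Psmg4 window, chr13:34162969-34162998 on the plus strand, holds it on the gene's strand, beginning at base 16.
Psme1: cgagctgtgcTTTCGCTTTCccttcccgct
Psmg4: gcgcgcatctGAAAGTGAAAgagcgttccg
On both strands, this pattern was in 5 of 43 member windows, those of Psmb3, Psmd4 and Psmd9 being the others, and in 3.44% of all promoter windows. The member count includes sequences seen before the search, so it is no fair comparison with that share. Of the 16 genes with a window that fell in at least 1 comparison, 2 hold the pattern. Psmb3, Psmd4 and Psmd9 were not called in any comparison. None of these matches, nor those of TGACNNNGC in the member windows, overlapped another motif searched.

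Psmc3ip and Psme3ip1 carry the name pattern without being subunits: the former encodes a cofactor of meiotic recombination and the latter a partner of Psme3. Psmc3ip read 6.05 and 5.75 in cDC1, 6.05 and 6.11 in CD24+CD172a+ cDC2, and 5.17 and 5.62 in CD24-CD172a+ cDC2. It had the largest difference of any member between the cDC2 populations, 0.68 ± 0.17 higher in CD24+CD172a+ cDC2, and missed the threshold (limma adjusted p = 0.0925). Psme3ip1 read 6.69 to 7.08. Neither gene was called in any comparison, so the 9 and 18 calls against cDC1 all lie among the other 45 genes.

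Fewer members were called when an array of a compared group was left out; the lone array left is then assumed to vary like the other groups. In CD24+CD172a+ cDC2 against cDC1, the 9 calls became 2 without cDC1 replicate 1, 3 without cDC1 replicate 2, and 2 and 4 without the first and the second CD24+CD172a+ array. In CD24-CD172a+ cDC2 against cDC1, the 18 became 6 and 8 without cDC1 replicates 1 and 2, and 7 and 9 without CD24-CD172a+ replicates 1 and 2. Psmg4 and Psme1 kept their calls in all 4 of these fits in both comparisons, and Psma5, Psmc5, Psmd7 and Psmg3 in all 4 for CD24-CD172a+ cDC2. Calls that none of the 4 fits kept were those of Psma3, Psma4, Psmb1, Psmc5 and Psme2 in CD24+CD172a+ cDC2, and those of Psma3, Psma6, Psma7, Psmb1, Psmb7, Psmd1, Psmd12 and Psme3 in CD24-CD172a+ cDC2. No called member changed direction in any of them.

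Between the cDC2 populations no member passed the test. By limma, 0 of 47 were called, where 1.46% of all genes were. At an unadjusted limma p under 0.05, 9 of 47 were higher in CD24+CD172a+ cDC2 and 0 lower. Of all genes, 7.89% were higher at that p, as were 1303 of the 9969 genes above the median level. The 9 members were Psma5, Psma6, Psmc4, Psmd1, Psmd7, Psmd9, Psmg2, Psmg3 and Psmc3ip. For Psma5 the dimmer probe set gave a difference of 0.07, beside 0.29 for the one used. The members' median difference was 0.14, against -0.01 over all genes and 0.05 over genes above the median level. Of the members, 38 of 47 were positive, where 47.5% of all genes were, and 5940 of the 9969 above the median level. Both CD24+CD172a+ arrays lay above both CD24-CD172a+ arrays in 27 members. The same held for 21.4% of all genes and for 32.2% of genes above the median level. Psmc4, an ATPase of the base, was 0.38 ± 0.13 higher (8.18 and 8.23 against 7.83 and 7.82, limma adjusted p = 0.192). Psmg2, a core chaperone, was 0.49 ± 0.15 higher (6.26 and 6.15 against 5.80 and 5.63, limma adjusted p = 0.157). Beside this, 10 of 17 cell cycle genes rose in CD24+CD172a+ cDC2 in the same comparison. So did 3 of 7 plasmacytoid markers (Siglech, Tcf4 and Spib) and 2 of 8 neutrophil markers (S100a8 and S100a9). In it, 7 of 11 monocyte and macrophage markers and 1 of 7 cDC1 markers (Cadm1) fell. The part of all these genes in the members' values was not tested.

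Of 9 other cap and assembly genes measured, 3 fell and 1 rose in CD24-CD172a+ cDC2 against cDC1, and 1 fell in CD24+CD172a+ cDC2. Pomp, the maturation chaperone that helps to complete the core, read 11.19 and 11.23 in cDC1, 10.02 and 10.37 in CD24+CD172a+ cDC2, and 9.998 and 10.14 in CD24-CD172a+ cDC2. It fell 2.03-fold and 2.21-fold (-1.02 ± 0.15 and -1.14 ± 0.15, limma adjusted p = 0.000863 and 0.000377). Uchl5, a deubiquitinase of the cap, and Ube3c, a ubiquitin ligase bound to the proteasome, fell by 0.43 and 0.48 in CD24-CD172a+ cDC2, and Zfand5, which stimulates the proteasome, rose by 0.46.

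None of the 3 regulators measured was called: Nfe2l1 differed from cDC1 by -0.33 in CD24+CD172a+ and -0.24 in CD24-CD172a+ cDC2, Nfe2l2 by -0.26 and -0.10, and Ngly1, which processes NFE2L1, by -0.14 and -0.17. Of 8 genes of ubiquitin supply and delivery, 1 fell and 2 rose in CD24+CD172a+ cDC2, and 1 fell in CD24-CD172a+ cDC2. Vcp, the segregase that extracts ubiquitinated proteins, fell in both, by 0.56 and 0.77. The ubiquitin-activating enzyme gene Uba6 and the shuttle gene Ubqln2 rose by 0.67 and 0.48 in CD24+CD172a+ cDC2. Of 7 peptidases that trim proteasome products, 1 fell in CD24+CD172a+ and 2 in CD24-CD172a+ cDC2. Lap3, leucine aminopeptidase, read 7.30 and 7.08 in cDC1, 5.88 and 5.87 in CD24+CD172a+ cDC2, and 5.26 and 5.71 in CD24-CD172a+ cDC2, and fell by 1.31 and 1.70. Blmh, bleomycin hydrolase, fell by 0.73 in CD24-CD172a+ cDC2.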

How the data were processed

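RNA of 3 sorted populations was hybridised to 6 Affymetrix arrays, 2 each. Per the submitters' processing notes, the authors ran RMA in Affymetrix's Expression Console software; RMA as usually defined includes background correction, quantile normalisation and probe summary. Versions and a genome build are not given in the sources used here. The deposited values are intensities on a linear scale (array medians 29.53 to 30.58), and their log2 was taken before any test. Where quantiles were normalised, a change in total RNA would not show. Of 28853 probe sets, 1621 with several symbols and 5443 with none were left out. Symbols were checked by gene ID against a RefSeq table (GRCm38.p6), which matched 21698 and changed 0. Under R 4.3.3, limma 3.58.1 fitted all genes (lmFit, eBayes, 6 arrays in 1 fit, 3 residual and 7.311 prior degrees of freedom), with Benjamini-Hochberg adjustment. Depth does not apply to arrays, and 2 arrays per group limit the precision.

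The members and all lists were chosen with earlier results of these data known. Given array by array are the catalytic subunits, the activators, the inhibitor, the members with the 6 largest called differences in each comparison and the largest in each role, and, though due under that rule only as counts and ranges, the other called members except Psma6 and Psma7. Of other pathway lists the called genes are named, at most 4 a list, with array values for Pomp and Lap3 alone. Psmd14, Psmd8, Psmc4 and Psmg2 were added after their values were seen. Alternatives were filters on dim genes, the handling of probe sets, other normalisations and variance models, the groups in the fit, blocking on replicate number, and dropping single arrays. Python 3.11.15 with matplotlib 3.10.9 drew the figures. Promoter sequences are RefSeq's.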

Additional observations from a re-analysis of the deposited data

How the results depend on the processing

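With genes below the median left out, or with an intensity trend and robust variance, 1 member (Psmg3) was called between the cDC2 populations in place of 0. Under cyclic loess the members' median there was 0.073 in place of 0.138, and against cDC1 in CD24-CD172a+ cDC2 it was -0.265, or -0.289 after quantile normalisation again, in place of -0.334. Without 1 array, the calls ran from 2 to 10 in CD24+CD172a+ cDC2 and from 6 to 14 in CD24-CD172a+ cDC2 against cDC1, and were 0 between the cDC2 populations; the medians ran from -0.232 to -0.117, from -0.391 to -0.282 and from 0.105 to 0.171. The log2 ratios of catalytic pairs kept their signs against cDC1; without 1 array the change ran from -1.486 to -0.971 for Psmb9 to Psmb6 and from -0.703 to -0.498 for Psmb8 to Psmb5 in CD24+CD172a+ cDC2. Under every other alternative the counts against cDC1 stayed between 8 and 13 and between 12 and 21, all lower. Of the 18 calls in CD24-CD172a+ cDC2 against cDC1, 14 were kept after quantile normalisation again and 12 under cyclic loess. Those of Psma6, Psma7, Psmb1 and Psmb7 were lost in the most alternatives, and not only where an array was left out. The labels leave unstated whether same-numbered arrays belong together. Their deviations correlated at 0.0242 to 0.0838, which with 2 arrays per group cannot settle it. With the replicate block 0, 10 and 16 members were called. The cause of these changes was not tested. Signal over background was not examined, so members near 5, Psma8, Psmb11 and Psmd5, may not be measured above background.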
